A study of Mus musculus with 6 samples.

Results

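Kinesins are motor proteins that walk along microtubules. Transport kinesins carry vesicles, organelles, RNA and cilium components through the cell, whereas mitotic kinesins build the spindle, move chromosomes and complete cell division. Round spermatids are haploid cells that divide no further. They reshape their heads with the manchette, a transient skirt of microtubules, and build a tail around a microtubule axoneme, and kinesins of the transport and ciliary groups are known to work at both structures.

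The kinesin genes were taken as every row of the deposited count table whose symbol begins with Kif followed by a digit or the letter c, together with Klc1 to Klc4 and Kifap3. This gave 41 of 22770 gene rows, and all 41 were tested. Of these, 33 encode motor subunits, 5 encode the accessory subunit Kifap3 or a kinesin light chain, 2 are pseudogenes (Kif4-ps and Kifc5c-ps) and 1 is an antisense RNA (Kif16bos), so the last 3 are not motor genes. The 38 protein-coding members were divided by known role into 16 transport kinesins, 13 mitotic kinesins and 9 ciliary or microtubule-regulating kinesins.

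The libraries were made from round spermatids sorted by flow cytometry from mouse testes at postnatal day 28, when most cells were at step 8. There were 3 libraries of the genotype labelled Eif5a SKO, which the deposited table calls cKO, and 3 wild-type libraries, which the design text calls control. Eif5a encodes a translation factor. The labels and design text do not expand SKO, name a driver of the deletion or tie libraries to animals, so p-values measure the spread between these libraries, which may be technical.

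Counts per library summed to between 52055193 and 60970931. Eif5a averaged 6.17 ± 0.77 CPM (counts scaled per 1e6 reads of the effective library size) in SKO and 659.7 ± 42.3 CPM in wild type (SD, n = 3 each), as the labels call for. SKO replicate 3 stood apart on the second principal component (13.5% of the variance), where it lay at -71.4 and the remaining SKO libraries lay at 40.3 and 37.6. Round spermatid markers (16 measured, 9 called higher and 1 lower) summed to 9133.3 to 9810.7 CPM in SKO and 6486.9 to 7031.0 CPM in wild type, and Acrv1, an acrosome gene of these cells, stood between 879.6 and 1028.7 CPM in SKO and between 595.1 and 663.0 CPM in wild type. Sertoli cell markers, all 7 measured ones called higher, summed to 46.8 to 174.3 CPM in SKO and 2.76 to 10.7 CPM in wild type, and 6 Leydig cell markers to 8.02 to 44.6 CPM in SKO and 1.26 to 21.6 CPM in wild type. Elongating spermatid markers, 9 of 14 called higher and 1 lower, summed to 12000 to 13596 CPM in SKO and 7421.0 to 8172.4 CPM in wild type. Over all genes tested, 21.2% were called higher and 20.9% lower. The 3 peritubular and endothelial markers summed to at most 68.3 CPM in SKO and at most 23.6 CPM in wild type, without overlap. The part of these cells in the kinesin results was not tested. In sorted bulk cells, fewer cells of a type and less RNA per cell cannot be told apart.

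Mitotic and transport kinesins differed in the letters of their promoters, which are shown first because the rule for choosing members did not use them. RefSeq promoters on GRCm38.p6, from 250 bases before to 50 bases after the annotated start, were found for 31 of the 41 rows. The cell cycle genes homology region (CHR), searched as TTTGAA on both strands, is known as an element of genes expressed late in the cell cycle. It was present in 10 of 12 mitotic kinesin promoters, in 0 of 11 transport kinesins and in 1 of 7 ciliary kinesins. Among all 32851 promoters of the same length, 17.9% held it. Of the mitotic kinesins with a promoter, 5 of 5 called lower in SKO held the CHR letters, and so did 5 of 7 that were not called, so the letters occurred in called and uncalled members. The 4 lines show 60 bases around these letters, near the start, in mitotic kinesins called lower, with the CHR letters in capitals as they read on the opposite strand, TTCAAA.
Kif22, chr7:127042421-127042480, minus strand: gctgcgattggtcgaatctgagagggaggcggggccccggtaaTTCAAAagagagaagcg
Kif15, chr9:122951021-122951080, plus strand: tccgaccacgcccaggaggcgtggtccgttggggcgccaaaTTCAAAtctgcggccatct
Kif11, chr19:37376322-37376381, plus strand: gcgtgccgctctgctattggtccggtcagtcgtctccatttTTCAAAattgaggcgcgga
Kif2c, chr4:117178843-117178902, minus strand: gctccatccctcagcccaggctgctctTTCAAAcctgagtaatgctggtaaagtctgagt
In Kif22, Kif15 and Kif11 the letters began 17, 19 and 19 bases before the start, and in Kif2c they began 103 bases before it. The RefSeq starts used for Kif22, Kif15 and Kif2c lie inside the span that GENCODE gives each gene, as do the CHR letters shown, and starts other than RefSeq's were not covered.

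The full cyclic AMP response element (CRE), TGACGTCA, is the letters bound by CREM, a transcription activator of round spermatids. It was present in 3 of 11 transport kinesin promoters, in 1 of 12 mitotic kinesins, in 0 of 7 ciliary kinesins and in 1.79% of all promoters. The transport kinesins that held it are shown with the CRE in capitals; of these, Kif5c was called lower and Kif17 and Klc1 were not called.
Kif17, chr4:138262141-138262200, plus strand: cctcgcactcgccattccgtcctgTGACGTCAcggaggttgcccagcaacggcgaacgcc
Kif5c, chr2:49619226-49619285, plus strand: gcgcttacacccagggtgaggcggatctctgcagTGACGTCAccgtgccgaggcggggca
Klc1, chr12:111758808-111758867, plus strand: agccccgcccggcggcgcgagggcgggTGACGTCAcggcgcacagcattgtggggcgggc
The CCAAT box, searched as CCAAT on both strands, did not separate the classes in the same way: 8 of 12 mitotic and 6 of 11 transport kinesins held it, against 37.4% of all promoters. The shorter CRE letters, TGACG, were held by 7 of 11 transport and 7 of 12 mitotic kinesins, against 20.8% of all promoters. The X-box letters GTTGCC were held by 4 of 11 transport, 2 of 12 mitotic and 3 of 7 ciliary kinesins, against 12.5%. The RefSeq starts of Kif17 and Klc1 also lie inside the GENCODE span. A match of letters is a description and not a binding site.

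Mitotic kinesins were called lower or were not called, while transport kinesins went both ways. The quasi-likelihood test of edgeR, read at an adjusted p under 0.05, called 7 of 41 members higher in SKO and 14 lower. Over all 19776 genes tested, 42.0% were called, 21.2% higher and 20.9% lower. Among the 13 mitotic kinesins 0 were higher and 6 lower, and the median log2 fold change was -0.62. The 16 transport kinesins had 4 called higher, 5 called lower and a median log2 fold change of 0.15. The 9 ciliary and microtubule-regulating kinesins had 2 higher, 1 lower and a median of 0.32, and all genes tested had a median of 0.01. These class values are descriptions, and no test was made between the classes.

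The call counts depended on transcript length and GC content: with a loess correction for both, 14 members were higher and 9 lower, where 23.3% of all genes were higher and 18.7% lower. Members are long, with a median transcript length of 3674 bases (4294.5 for the coding members) against 2299 bases over all genes tested. Coding genes under 2000 bases had a median log2 fold change of 0.41. The median was -0.11 from 2000 to 3000 bases, -0.23 from 3000 to 4000, -0.17 from 4000 to 6000 and -0.04 over 6000. The correction took length and GC content together, and their separate parts were not tested. With it, the log2 fold change of Kif17 (60.1% GC, 3453 bases) went from 0.60 to 1.18, and that of Klc2 (60.4%, 3169 bases) from -0.31 to 0.30. Kif18a (38.2%, 6509 bases) went from -0.12 to -0.22, and Kif2a (38.6%, 5304 bases) from 0.66 to 0.59. With the correction, the mitotic kinesins had 1 higher and 3 lower with a median of -0.25, and the transport kinesins had 7 higher and 4 lower with a median of 0.40. Under library totals alone, in place of TMM factors, the median log2 fold change was -0.86 for mitotic kinesins, -0.09 for transport kinesins and -0.23 for all genes. Without wild-type replicate 2 the members called lower numbered 8 and the mitotic kinesins called lower 3, and 15.0% of all genes were called lower.

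**Figure D1:**
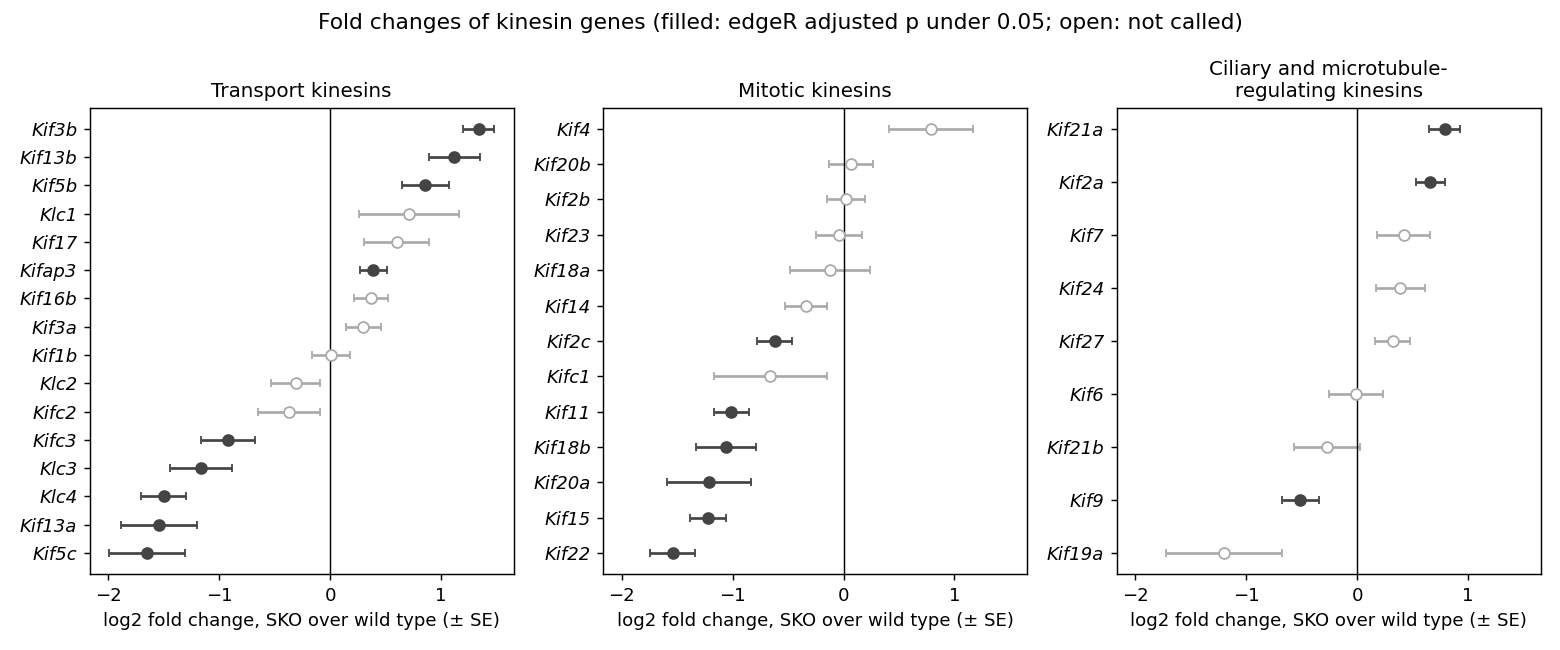
Log2 fold change (SKO over wild type) ± SE from edgeR for each protein-coding kinesin gene, in panels by role; filled points passed an adjusted p under 0.05 and open points did not. Mitotic kinesins run down to -1.54 (Kif22) with no filled point above 0, while transport kinesins spread from -1.65 (Kif5c) to 1.34 (Kif3b) with filled points on both sides.

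Kinesin-2 is the anterograde motor of intraflagellar transport, made of the motor subunits KIF3A and KIF3B and the accessory subunit KAP3, encoded by Kifap3. Kif3b (chromosome 2, 153291413 to 153333390) stood at 141.0, 141.3 and 169.0 CPM in SKO replicates 1 to 3, against 56.1, 66.1 and 55.7 CPM in wild-type replicates 1 to 3. All SKO values lay above all wild-type values, and the log2 fold change was 1.34 ± 0.14 (edgeR adjusted p = 0.000118). It was 1.66 with the length and GC correction. Kifap3 (chromosome 1, 163779583 to 163917109) stood at 495.0, 538.0 and 488.1 CPM in SKO, against 374.7, 380.9 and 409.3 CPM in wild type. The groups did not overlap, but the change was smaller, at 0.39 ± 0.12 (edgeR adjusted p = 0.0237). That call ended under library totals, where the log2 fold change was 0.14 (edgeR adjusted p = 0.305). It also ended without SKO replicate 2 or any 1 of the wild-type replicates.

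Kif3a (chromosome 11, 53567379 to 53601967) had 156.8, 148.4 and 125.4 CPM in SKO, against 112.2, 140.5 and 97.6 CPM in wild type. The groups overlapped and the gene was not called, the log2 fold change being 0.30 ± 0.16 (edgeR adjusted p = 0.171). With the length and GC correction the value was 0.50 and passed the threshold (edgeR adjusted p = 0.0173). Per kilobase of transcript, the level of Kif3b relative to Kif3a was 0.504, 0.534 and 0.756 in SKO, against 0.280, 0.264 and 0.320 in wild type. The ratio was thus higher in every SKO library than in any wild-type library. It was computed after the values were seen and is a description.

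**Figure D2:**
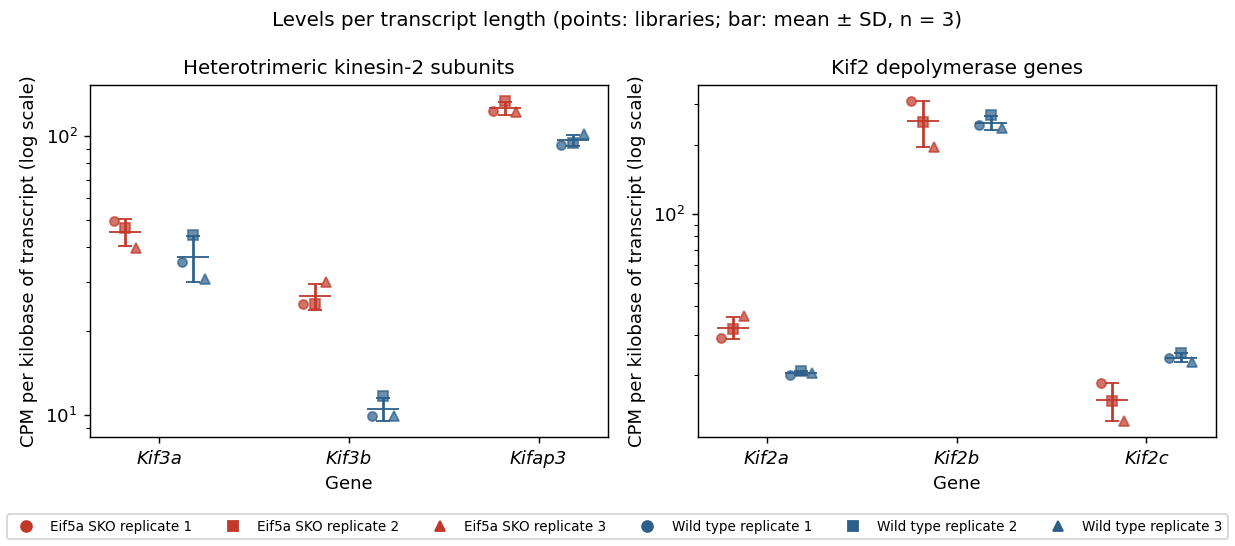
Levels per kilobase of transcript (log scale) of the kinesin-2 subunits (left) and the kinesin-13 depolymerases (right), with SKO left of wild type for each gene; points are libraries and bars mean ± SD of 3. Kif3b stands at 25.0 to 30.0 in SKO and 9.89 to 11.7 in wild type, and Kif2b overlaps between the groups.

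Kif17 (chromosome 4, 138250435 to 138301967) encodes a homodimeric kinesin-2 motor known in spermatids for binding the CREM coactivator ACT, encoded by Fhl5. It had 28.4, 25.8 and 60.4 CPM in SKO, against 27.9, 24.9 and 22.6 CPM in wild type. SKO replicates 1 and 2 lay within or just above the wild-type range and SKO replicate 3 stood far above it. The log2 fold change of 0.60 ± 0.29 was not called (edgeR adjusted p = 0.129) and was 0.07 without SKO replicate 3. With the length and GC correction it was 1.18 (edgeR adjusted p = 0.00281). Fhl5 itself rose, to 613.8 ± 109.7 CPM in SKO against 356.0 ± 31.7 CPM in wild type (edgeR adjusted p = 0.00293).

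Kinesin-1 carries cargo through a pair of heavy chains, encoded by Kif5 genes, and a pair of light chains that bind cargo. Its members were all low in these cells and went different ways. Kif5b, the ubiquitous heavy chain, had 4.85, 5.57 and 4.87 CPM in SKO, against 2.62, 3.27 and 2.52 CPM in wild type, the log2 fold change being 0.86 ± 0.21 (edgeR adjusted p = 0.01). Kif5c, a heavy chain best known in neurons and a holder of the CRE shown above, had 0.702, 1.22 and 1.33 CPM in SKO, against 3.25, 2.47 and 4.54 CPM in wild type. It fell by 1.65 ± 0.34 on the log2 scale (edgeR adjusted p = 0.00394). For both heavy chains the groups did not overlap.

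Among the light chains, Klc4 had 5.06, 3.82 and 3.98 CPM in SKO, against 13.0, 13.2 and 10.3 CPM in wild type, the log2 fold change being -1.50 ± 0.20 (edgeR adjusted p = 0.000361). Klc3, whose product is known in rat spermatids for binding outer dense fibres and mitochondria, had 1.57, 1.00 and 1.21 CPM in SKO, against 2.59, 2.81 and 3.05 CPM in wild type, a change of -1.16 ± 0.28 (edgeR adjusted p = 0.00813). Both fell without overlap between groups, although 28.1% of the exonic bases of Klc3 overlap Ercc2 on the opposite strand. Klc1 and Klc2 were not called, with group means of 1.89 and 3.98 CPM in SKO and 1.16 and 4.92 CPM in wild type.

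Kinesin-3 motors carry vesicles over long distances. Kif13b had 4.94, 4.73 and 5.09 CPM in SKO, against 2.04, 2.81 and 1.92 CPM in wild type, and rose by 1.12 ± 0.23 (edgeR adjusted p = 0.00393). Kif13a, which carries vesicles from the trans-Golgi network, had 0.785, 0.668 and 1.41 CPM in SKO, against 3.08, 2.49 and 2.76 CPM in wild type, and fell by 1.54 ± 0.34 (edgeR adjusted p = 0.00535). These paralogs therefore moved in opposite directions, each without overlap between groups. Kif16b, an endosome motor, had 20.8 ± 1.62 CPM in SKO and 16.0 ± 1.47 CPM in wild type (SD, n = 3 each), and was not called (edgeR adjusted p = 0.0722) although its groups did not overlap. Kif16b passed with the length and GC correction, at 0.57 (edgeR adjusted p = 0.00771). Kif1b, a motor for mitochondria and vesicles, had 18.5 ± 3.13 CPM in SKO and 18.4 ± 2.14 CPM in wild type.

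The minus-end motor genes Kifc3 and Kifc2 completed the transport class. Kifc3 had 2.79, 2.26 and 3.52 CPM in SKO, against 4.99, 6.32 and 4.97 CPM in wild type, and fell by 0.92 ± 0.24 (edgeR adjusted p = 0.012). That call ended with the length and GC correction and without wild-type replicate 2. Of its exonic bases, 27.5% overlap other genes on the opposite strand, and without a stated strand setting the reads of the overlap cannot be told apart. Kifc2, at 1.90 ± 0.43 CPM in SKO and 2.45 ± 0.30 CPM in wild type, was not called. Within the transport class, 2 of 6 members with a mean of at least 10 CPM over both groups were higher and 0 lower. Of 10 members below that level, 2 were higher and 5 lower. The mitotic class had 0 higher and 6 lower of 10 members at or above that level, and 0 called of 3 below it. Over all genes tested, at any level, 21.2% were higher and 20.9% lower, and shares at each level were not computed.

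**Figure D3:**
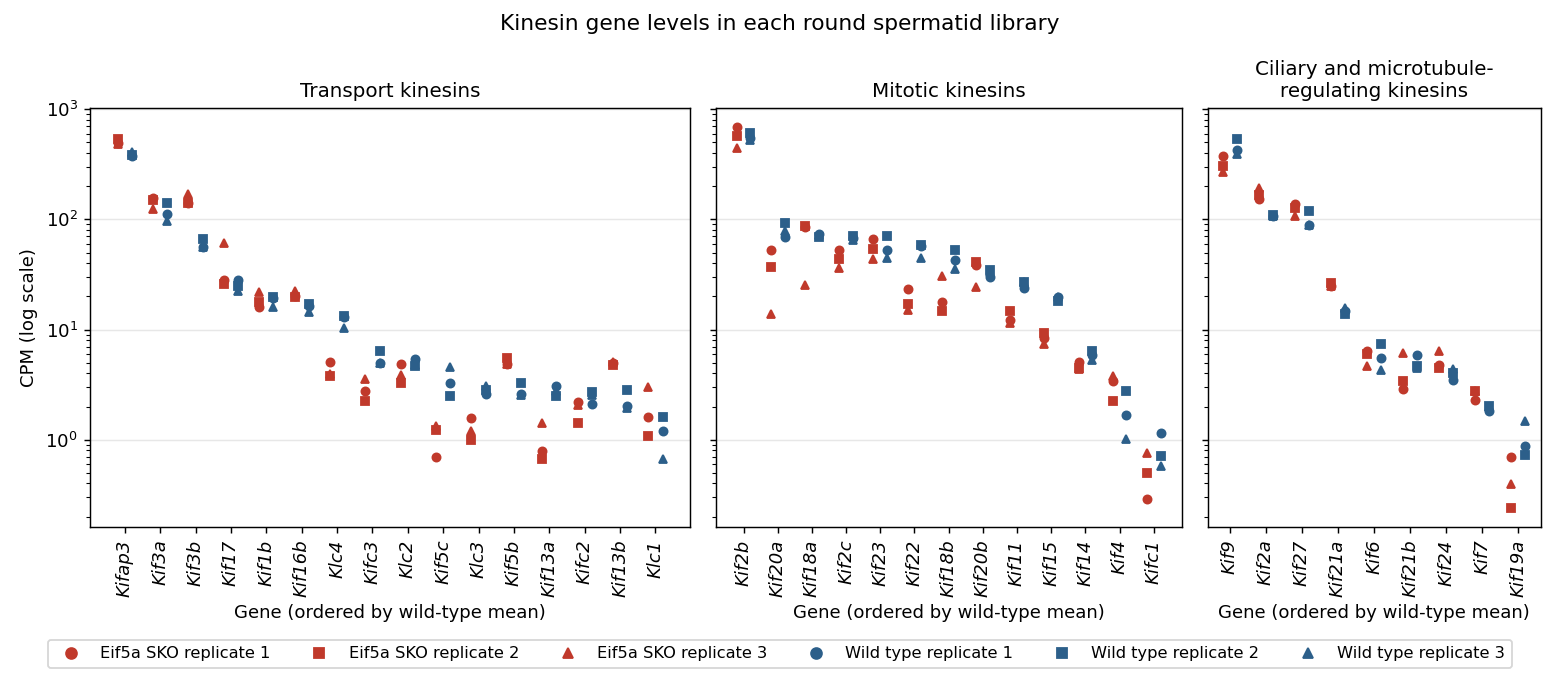
CPM (log scale) of each protein-coding kinesin gene in each library, SKO left of wild type, in panels by role and ordered by wild-type mean. Kifap3, Kif2b and Kif9 lead their panels, and SKO replicate 3 (triangles) stands apart in Kif17, Kif18a and Kif20a.

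Mitotic kinesin transcripts were still present in these cells, and 6 of 13 fell. Kif22 (chromosome 7, 127027729 to 127042471), a chromokinesin that pushes chromosome arms, had 23.1, 16.9 and 15.0 CPM in SKO, against 57.0, 58.2 and 44.4 CPM in wild type. It fell by 1.54 ± 0.20 on the log2 scale (edgeR adjusted p = 0.000319). Kif15 (chromosome 9, 122951046 to 123018733) and Kif11 (chromosome 19, 37376403 to 37421859) encode the motors that push spindle poles apart. Kif15 had 8.41, 9.20 and 7.39 CPM in SKO, against 19.9, 18.3 and 19.9 CPM in wild type, the log2 fold change being -1.22 ± 0.16 (edgeR adjusted p = 0.000353). Kif11 had 12.2, 14.8 and 11.5 CPM in SKO, against 23.6, 27.1 and 26.9 CPM in wild type, the log2 fold change being -1.01 ± 0.16 (edgeR adjusted p = 0.000989). In all of these the SKO values lay below every wild-type value, and all 3 calls held under each of the alternatives tried.

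The other mitotic kinesins called lower were less stable. Kif20a (chromosome 18, 34624613 to 34633277), a motor of cytokinesis, had 52.4, 37.3 and 13.7 CPM in SKO, against 68.6, 91.8 and 79.0 CPM in wild type. Its log2 fold change was -1.21 ± 0.38 (edgeR adjusted p = 0.0287), and -0.87 without SKO replicate 3 (edgeR adjusted p = 0.00339). The call ended under DESeq2 (-1.23), with the length and GC correction (-0.95), and without SKO replicate 2 (-1.31) or wild-type replicate 2 (-1.10) or 3 (-1.22), with log2 fold changes in parentheses. Of its exonic bases 29.3% overlap Cdc23, a cell cycle gene on the opposite strand, which fell by 0.80 ± 0.19 (edgeR adjusted p = 0.00725).

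Kif18b, which shortens spindle microtubules, had 17.8, 14.7 and 30.3 CPM in SKO, against 42.9, 52.7 and 35.6 CPM in wild type, the log2 fold change being -1.06 ± 0.27 (edgeR adjusted p = 0.0104). Kif2c, a kinesin-13 that takes microtubules apart at kinetochores, had 52.4, 44.0 and 35.9 CPM in SKO, against 67.7, 70.7 and 64.5 CPM in wild type, the log2 fold change being -0.62 ± 0.16 (edgeR adjusted p = 0.0129). Both lay below wild type without overlap. Both calls ended with the length and GC correction, at log2 fold changes of -0.58 and -0.35, and without wild-type replicate 2.

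**Figure D4:**
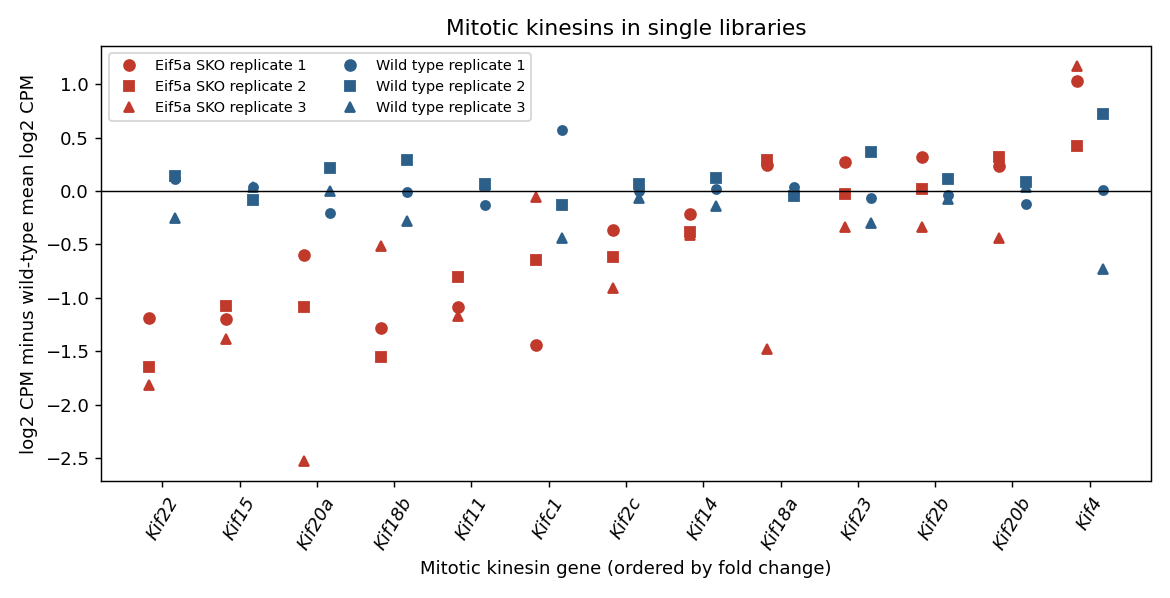
Log2 CPM of each mitotic kinesin gene in each library minus the gene's wild-type mean, SKO (red) left of wild type (blue), ordered by fold change. SKO replicate 3 (triangles) is the highest SKO library for Kif18b, Kif4 and Kifc1 and the lowest for every other gene shown. It lies far below the remaining SKO libraries in Kif20a and Kif18a.

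Kif18a (chromosome 2, 109280738 to 109341747), which holds chromosomes in line at metaphase, had 84.7, 87.8 and 25.6 CPM in SKO, against 73.5, 69.4 and 71.9 CPM in wild type. SKO replicates 1 and 2 were above all wild-type libraries and SKO replicate 3 far below them. The log2 fold change was -0.12 ± 0.36 (edgeR adjusted p = 0.824), and 0.24 without SKO replicate 3 (edgeR adjusted p = 0.0816), so 1 library set its sign. Kif20b, a cytokinesis motor gene, had 38.6, 40.9 and 24.1 CPM in SKO, against 30.2, 34.7 and 33.6 CPM in wild type, again with SKO replicate 3 alone below wild type. Kif23, of the centralspindlin complex, averaged 54.6 ± 11.5 CPM in SKO and 56.1 ± 13.4 CPM in wild type (SD, n = 3 each).

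Kif14, a cytokinesis motor gene, averaged 4.64 ± 0.35 CPM in SKO and 5.86 ± 0.52 CPM in wild type, without overlap but not called (edgeR adjusted p = 0.183). The X-linked chromokinesin gene Kif4 had 3.43, 2.24 and 3.78 CPM in SKO, against 1.69, 2.76 and 1.01 CPM in wild type, and was not called (log2 fold change 0.79 ± 0.38, edgeR adjusted p = 0.119). With the length and GC correction it was 1.08 and passed (edgeR adjusted p = 0.0353), the only mitotic kinesin called higher there. Kifc1, a minus-end motor known in mouse spermatids for work at the acrosome and nucleus, had 0.289, 0.501 and 0.752 CPM in SKO, against 1.16, 0.716 and 0.577 CPM in wild type. The groups overlapped and it was not called (edgeR adjusted p = 0.329). Of its runs of 50 transcript bases 38.6% also occur in Kifc5b, and of those of 150 bases 7.35%, so its counts are uncertain.

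The kinesin-13 genes did not move together. Kif2a, which controls microtubule length outside mitosis as well, had 153.3, 167.7 and 191.0 CPM in SKO, against 106.3, 110.2 and 108.2 CPM in wild type, and rose by 0.66 ± 0.13 (edgeR adjusted p = 0.00304). Kif2b, a gene of 2244 bases on chromosome 11 whose transcript was the most abundant of the coding members per kilobase in both groups, had 695.0, 566.4 and 440.5 CPM in SKO, against 544.3, 602.6 and 529.1 CPM in wild type. The groups overlapped and its log2 fold change was 0.02 ± 0.17 (edgeR adjusted p = 0.929). Per kilobase, Kif2b relative to Kif2c was 15.6 to 16.8 in SKO and 10.2 to 10.8 in wild type, as a description.

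Kif9 encodes a motor of the axonemal central apparatus. Kif9 (chromosome 9, 110476958 to 110525179) had 373.5, 306.5 and 267.7 CPM in SKO, against 426.5, 532.5 and 392.9 CPM in wild type, and fell by 0.51 ± 0.17 (edgeR adjusted p = 0.0319). The call ended with the length and GC correction (log2 fold change -0.25, edgeR adjusted p = 0.165) and without SKO replicate 2 or wild-type replicate 1 or 2. Kif6, its kinesin-9 relative, had 6.42, 5.96 and 4.63 CPM in SKO, against 5.50, 7.31 and 4.30 CPM in wild type, and was not called (edgeR adjusted p = 0.982). Kif27, a paralog of the Hedgehog regulator Kif7 that is needed for motile cilia in mice, had 136.8, 126.7 and 107.1 CPM in SKO, against 89.2, 119.0 and 89.3 CPM in wild type. It was not called (edgeR adjusted p = 0.142), but passed with the length and GC correction, at 0.62 (edgeR adjusted p = 0.00651).

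Kif21a, which restrains microtubule growth at the cell cortex, had 25.0, 26.7 and 24.8 CPM in SKO, against 14.7, 13.9 and 15.7 CPM in wild type, and rose by 0.79 ± 0.14 (edgeR adjusted p = 0.00192). Its paralog Kif21b had 2.87, 3.41 and 6.14 CPM in SKO, against 5.88, 4.64 and 4.49 CPM in wild type. SKO replicate 3 stood above the other SKO libraries, and Kif21b was not called with it (edgeR adjusted p = 0.495) but was lower without it, by -0.70 on the log2 scale (edgeR adjusted p = 0.0291). Kif19a, a controller of cilium length, had 0.702, 0.241 and 0.396 CPM in SKO, against 0.869, 0.733 and 1.47 CPM in wild type, and was not called (edgeR adjusted p = 0.0915). Kif24 and Kif7, which act in ciliogenesis and Hedgehog signalling, averaged 5.21 and 2.59 CPM in SKO and 3.98 and 1.94 CPM in wild type. Neither was called, although in both the groups did not overlap. Both passed with the length and GC correction, Kif24 at 0.74 (edgeR adjusted p = 0.0175) and Kif7 at 1.10 (edgeR adjusted p = 0.00754).

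By level per kilobase of transcript, the coding members kept a similar head of the order. In SKO it was Kif2b (252.8 CPM per kilobase), Kifap3 (126.4), Kif9 (99.2) and Kif3a (45.4), and in wild type Kif2b (249.0), Kif9 (141.5), Kifap3 (96.8) and Kif3a (36.9). Kif3b was the sixth in SKO, at 26.7 ± 2.85 CPM per kilobase, and stood at place 13 in wild type, at 10.5 ± 1.05 (SD, n = 3 each). Kif20a and Kif22 went the other way, at places 12 and 15 in SKO against 6 and 10 in wild type. Kif2c and Kif20a, neighbours in the wild-type order at 23.8 and 21.7 CPM per kilobase, differed there by less than the SD of Kif20a. These levels use 1 transcript length per gene, so a different isoform in these cells would change them.

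Summed over the transport class, the members had 886.5 to 917.8 CPM in SKO libraries and 647.1 to 691.8 CPM in wild-type libraries. Kifap3 made up most of that, and without it the sums were 377.8 to 429.7 CPM in SKO and 244.3 to 310.9 CPM in wild type. The mitotic class summed to 1059.8, 893.3 and 656.4 CPM in SKO, against 989.0, 1106.3 and 956.7 CPM in wild type, and the groups overlapped. Mitotic kinesins without Kif2b summed to 364.8, 326.8 and 215.9 CPM in SKO, against 444.7, 503.6 and 427.6 CPM in wild type. As a share of all kinesin CPM, mitotic members made up 29.7% to 39.7% in SKO and 42.4% to 42.8% in wild type. The lowest share and the lowest sum were those of SKO replicate 3.

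The 3 rows that are not motor genes all passed the test. Kif16bos, transcribed from 142902965 on chromosome 2 in the opposite sense to Kif16b and with no shared exonic bases, had 15.5, 14.5 and 24.1 CPM in SKO, against 10.4, 8.13 and 8.17 CPM in wild type (log2 fold change 1.02 ± 0.22, edgeR adjusted p = 0.00537). Kif4-ps, a processed copy of Kif4 on chromosome 12, had 4.03, 4.19 and 3.50 CPM in SKO, against 7.07, 6.46 and 6.75 CPM in wild type, and fell by 0.79 ± 0.19 (edgeR adjusted p = 0.00813). Kifc5c-ps on chromosome 10 had 0.682, 0.853 and 0.931 CPM in SKO, against 1.69, 2.13 and 1.65 CPM in wild type, and fell by 1.15 ± 0.32 (edgeR adjusted p = 0.0166). The Kifc5c-ps call ended without wild-type replicate 2. Only 0.366% of the runs of 50 bases in Kif4-ps occur in Kif4, where the parent gene had a positive log2 fold change that was not called.

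Over the members as a whole, 10 lay above wild type in all SKO libraries and 16 below. Of all tested genes, 27.3% lay above and 28.3% below, 55.6% together. At least a 2-fold change with an adjusted p under 0.05 was reached by 3 members that were higher and 10 that were lower, against 11.7% and 13.0% of all genes. The mitotic class had 0 above, 7 below and 6 overlapping. The transport class had 5 above, 5 below and 6 overlapping.

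Genes that work with kinesins were counted from lists drawn up by known function. Of 30 partners of mitotic kinesins (spindle, checkpoint and division genes), 2 were called higher (6.67%, against 21.2% of all genes) and 8 lower (26.7%, against 20.9%), and the median was -0.12. Aurkc, the meiotic Aurora kinase, had 13.7, 16.1 and 15.3 CPM in SKO, against 72.9, 72.1 and 69.5 CPM in wild type, and fell by 2.25 ± 0.14 (edgeR adjusted p = 1.21e-05). Ckap5, a microtubule polymerase gene, fell to 18.5 ± 3.8 CPM in SKO, against 49.8 ± 3.6 CPM in wild type, and Plk1, the Polo kinase gene, to 100.3 ± 19.2 CPM, against 215.3 ± 12.2 CPM. Birc5, of the chromosomal passenger complex, rose to 237.6 ± 29.5 CPM in SKO, against 120.4 ± 9.1 CPM in wild type. Of these partners, with the length and GC correction, 7 were higher and 6 lower, where 23.3% of all genes were higher and 18.7% lower. Of 14 spermatocyte markers of pachytene to metaphase, 4 were called higher and 0 lower, with a median of 0.10. Their sum was mostly Ldhc, and without it was 3581.3 to 4225.7 CPM in SKO and 3740.4 to 3943.4 CPM in wild type, which overlap. Of 8 leptotene and zygotene markers, 2 were called higher and 3 lower, with a median of 0.01. Of 7 spermatogonium markers, 0 were called higher and 2 lower, with a median of 0.05. The spermatogonium markers summed to 28.2 to 30.1 CPM in SKO and 31.4 to 34.6 CPM in wild type. The part of these cells in the levels of mitotic kinesins was not tested.

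Of 27 measured adaptors, cargoes and activators of transport kinesins, 4 were called higher (14.8%) and 5 lower (18.5%), near the 21.2% and 20.9% of all genes, and the median was 0.22. Map7d3, a microtubule protein that recruits kinesin-1, rose by 1.38 ± 0.17 (edgeR adjusted p = 0.000256), with 41.9, 41.5 and 41.3 CPM in SKO, against 14.1, 19.6 and 14.2 CPM in wild type. Grip1, an adaptor known in neurons for steering KIF5, fell by 1.03 ± 0.19 (edgeR adjusted p = 0.00187), to 34.8 ± 7.5 CPM in SKO against 71.3 ± 9.8 CPM in wild type. With the length and GC correction 11 of these were higher and 3 lower, where 23.3% of all genes were higher and 18.7% lower.

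Cytoplasmic dynein, the motor that runs opposite to most kinesins, and its activator dynactin had 8 of 34 measured genes higher (23.5%, near the 21.2% of all genes) and 4 lower (11.8%, against 20.9%), with a median of 0.07. The light chain genes Dynlt3 and Dynll1 rose by 2.00 ± 0.18 and 0.98 ± 0.13 (edgeR adjusted p = 5.81e-05 and 0.000312). Dynlt3 had 91.4, 102.8 and 129.4 CPM in SKO, against 30.7, 22.8 and 27.3 CPM in wild type. Hook2, an adaptor that activates dynein, fell by 0.56 ± 0.12 (edgeR adjusted p = 0.00503), a call that ended with the length and GC correction at -0.16.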

How the data were processed

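The authors deposited raw counts per gene. The submitters' processing notes list featureCounts 1.5.0-p3 and HISAT2 2.0.5 with GRCm38 (mm10), Trim Galore 0.6.4 and FastQC. No annotation release, strand setting or handling of multi-mapping reads was found in those notes. Per the labels, Smart-seq2 cDNA was read as pairs of 150 bases. Without molecular identifiers, the number of reads alone does not give the precision of a level. The SE and p-values of the fit also take in the spread between libraries. A floor of 3 counts was 0.0481 to 0.062 CPM.

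Columns named cKO were matched to the SKO titles through the replicate number and the wild-type columns likewise. edgeR 4.0.16 (R 4.3.3) took the counts through filterByExpr (minimum counts 10 and 15), TMM factors and its 2-sided quasi-likelihood test on group alone, adjusted by Benjamini-Hochberg over 19776 genes; 2994 were below the filter. The SE is |log2 fold change| divided by the root of F. Coordinates, transcript length and GC content came from GENCODE M21 (GRCm38), which 22023 of 22770 gene rows matched, through the transcript with the longest coding sequence. Promoters were RefSeq's.

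Members and lists were chosen with earlier results of these data known. Values in every library are given for members called with at least 5 CPM in the higher group or called with at least a 2-fold change, and for members with a known spermatid role. Kif2b, Kif18a, Kif20b and Kif21b were added after their values were seen. From each other list, up to 3 genes called in each direction with the lowest adjusted p could be named; some overlapping genes were named beside members and others left unreported. Alternatives were DESeq2 1.42.0, limma-voom (limma 3.58.1), other factors, filters and thresholds, a loess correction (span 0.4) for length and GC, the replicate number as a block, and each library left out. The fit was tested on simulated data with 200 genes set to differ and 19409 tested. There it recovered 41% of the genes set to differ 2-fold and 88% of those set to differ 4-fold. Of the calls it made there, 8.51% were false. Where no gene was set to differ, it made 0 calls. In the real data 42.0% of genes were called, a far larger share than was set to differ there. The rates of recovery and of false calls therefore need not hold for the real data.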

Additional observations from a re-analysis of the deposited data

How the results depend on the processing

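Setting aside the 2-fold threshold, which was applied to list counts only, 11 members were called in every alternative that gave a value. These were Kif3b, Kif13b, Kif2a, Kif21a and Kif16bos higher, and Kif5c, Kif13a, Klc4, Kif22, Kif15 and Kif11 lower. Kif2a and Kif21a changed by less than 2-fold, at log2 fold changes of 0.66 and 0.79. The length and GC correction moved most counts: 14 members higher and 9 lower, 7 transport kinesins higher, 1 mitotic kinesin higher and 3 lower, 11 adaptors higher and 3 lower, 7 mitotic partners higher, and 1 dynein gene lower; transport and mitotic medians were 0.40 and -0.25. With that correction 23.3% of all genes were higher and 18.7% lower. Replicate numbers did not pair the libraries (correlations of deviations -0.0221, -0.0511 and -0.0655). The replicate block alone left 1 mitotic partner higher. The Kifap3 call ended with the block (edgeR adjusted p = 0.0889), and with the block and the correction those of Klc3 (0.0884), Kif4-ps (0.0544) and Kifc5c-ps (0.0539) ended. The replicate block with that correction gave 14 members higher and 7 lower, 7 transport higher and 3 lower, 1 mitotic higher, 7 adaptors higher and 2 lower, 6 partners higher and 0 dynein genes lower, with medians of 0.40 and -0.36. There 20.2% of all genes were higher and 17.1% lower. Library totals gave 1 partner higher, 8 dynein genes lower and medians of -0.09 and -0.86, where 14.3% of all genes were higher and 28.7% lower. The filter of 5 CPM in 3 libraries left 2 transport kinesins lower, 4 partners higher and a transport median of 0.32. Of the genes it kept, 29.9% were higher and 26.7% lower. This filter left Kif5c, Klc3 and Kif13a untested, so their lower calls were not tried there, and the median covers only the members kept. Leaving out members of mixed role left 3 transport kinesins lower and a median of 0.30. At an adjusted p under 0.01, 8 members, 3 mitotic kinesins, 1 adaptor, 5 partners and 1 dynein gene were lower, and 2 transport kinesins and 1 partner were higher. The shares of all genes at that threshold were not computed. Requiring a 2-fold change left 3 members, 2 transport kinesins, 2 adaptors, 0 partners and 2 dynein genes higher. It left 3 adaptors, 4 partners and 0 dynein genes lower. Of all genes, 11.7% were higher and 13.0% lower there.

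Without 1 library at a time, members called higher numbered 6 to 7 and lower 8 to 15, transport 3 to 4 higher and 4 to 5 lower, and mitotic 0 to 1 higher and 3 to 6 lower; the lowest of the lower counts and the 1 mitotic call higher came without wild-type replicate 2. Transport medians ran from -0.05 (without SKO replicate 3) to 0.22 and mitotic medians from -0.65 to -0.33. Adaptors had 3 to 6 higher and 1 to 5 lower, and partners 1 to 5 higher and 5 to 9 lower. Dynein genes had 7 to 12 higher and 2 to 5 lower. Without SKO replicate 3, 5 partners and 12 dynein genes were higher. Over all genes, with 1 library left out, 15.2% to 21.4% were called higher and 15.0% to 23.5% lower.

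Signs turned only for members that were not called. With the length and GC correction, alone and with the replicate block, they were 0.26 and 0.25 for Kif21b, 0.12 and 0.13 for Kif23, 0.22 and 0.21 for Kifc2, 0.38 and 0.39 for Kif6, and 0.30 and 0.29 for Klc2. Kif20b turned to -0.01 with both, and to -0.18 under library totals. Kif1b was -0.0025 with DESeq2 size factors, -0.22 under library totals and -0.01 in DESeq2. Kif2b was -0.22 under library totals, -0.0006 in limma-voom and -0.00067 with the replicate block. Kif6 was 0.03 with upper quartile factors, 0.02 with the 5 CPM filter and in limma-voom, and 0.01 with the replicate block. Without 1 library at a time, Kif18a ran from -0.41 to 0.24, Kif23 from -0.23 to 0.16 and Kif2b from -0.17 to 0.14, and signs turned for Kif1b at -0.17 and -0.09, Kif6 0.08 and 0.21, and Kif20b -0.04 and -0.10. The causes were not tested. Members under 2 CPM rest on few reads, and 3 libraries a group limit all calls.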
